A study of Mus musculus with 7 samples.

Results

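The RIG-I-like receptors are helicases of the cytosol that bind viral RNA, and they were examined here as a group of 6 genes in mouse bone marrow with and without Aim2. The group holds the receptors Ddx58 (RIG-I), Ifih1 (MDA5) and Dhx58 (LGP2), the related helicase Ddx60, the adaptor Mavs and the ubiquitin ligase Rnf135 (Riplet). The rule that chose them goes by known role and sets no threshold on values, but they were chosen with earlier results of these data known. The same holds for the gene lists used below. All 6 members were among the 14238 genes with enough reads to test, of 35498 genes with a listed transcript. The marrow was taken from female mice at an age of 5 to 6 months. There were 3 libraries of mice labelled as Aim2 knock-out (KO), whose treatment note calls them AIM2 null, and 4 libraries of wild-type (WT) mice, with no treatment named for either genotype. Aim2 encodes a sensor of cytosolic DNA, and the title of the study concerns fat cell formation in the marrow of mice that lack it. The labels name no background strain, no deleted exons and no agent, nor whether every library stands for a separate mouse. The p-values therefore speak only of the spread among these 7 libraries, which may be technical in part.

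When RIG-I or MDA5 binds double-stranded RNA in the cytosol, its signalling domains assemble with Mavs on the mitochondrial surface. Mavs then recruits kinases that activate Irf3, Irf7 and NF-kB, which switch on type I interferon genes. LGP2 binds RNA but lacks the signalling domains of the other receptors, and it tunes their activity. Riplet adds ubiquitin chains to RIG-I. Interferon in turn raises transcription of the helicases themselves through the factor ISGF3, so that the sensors are both upstream of interferon and among its target genes.

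The depth of the libraries was 20777315, 21027429 and 20948822 estimated reads in KO and 20342443, 20558800, 20300468 and 21099972 in WT. Aim2 (ENSMUSG00000037860.15, chr1:173350879-173466040, plus strand) had 157, 47 and 59 reads in the KO libraries, against 601, 573, 535 and 533 reads in the WT libraries. It was lower in every KO library than in every WT library, and its log2 fold change, KO over WT, was -2.76 ± 0.38 (SE), with an adjusted p of 0.028 by edgeR's quasi-likelihood test. The call was lost without any 1 library other than KO library 1 (log2 fold change -2.47 at the smallest, edgeR adjusted p up to 0.097), and limma on log2(TPM + 0.1) gave -1.17 with an adjusted p of 0.0540. KO library 1 kept more Aim2 reads than the other KO libraries. The share of reads from haemoglobin genes was 11.3 to 13.7% in KO and 13.8 to 19.9% in WT. Libraries of the same genotype differed by more than sampling noise in every pair (chi-square of 9.14 to 55.7 for each degree of freedom).

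The 4 helicases rose in KO marrow, and the adaptor and the ligase did not pass the test. Ddx60 and Dhx58 were highest in relative terms, at 2.31 and 1.97 times the WT level, followed by Ifih1 at 1.67 and Ddx58 at 1.56 times. All 4 passed an adjusted p of 0.05 by edgeR's quasi-likelihood test, adjusted over all tested genes, of which 11.5% had an unadjusted p under 0.05. Of all 14238 tested genes 68, or 0.478%, were higher by this rule. No member was lower, against 0.169% of all tested genes, and DESeq2 and voom called the same 4 genes and no other member. The CPM values, read counts scaled to a common library size, of KO and WT libraries did not overlap for the same 4 members, as was the case for 12.9% of all tested genes. Bone marrow is a mixture, and in bulk libraries more cells that express a gene and more RNA per cell cannot be told apart. Each fold change is KO over WT, and each p-value is adjusted with the Benjamini-Hochberg method. With each library left out in turn, 2 or 3 of the 4 genes still passed. Dhx58 and Ddx60 passed in all 7 of these fits, and Ddx58 and Ifih1 in 1 each.

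**Figure D1:**
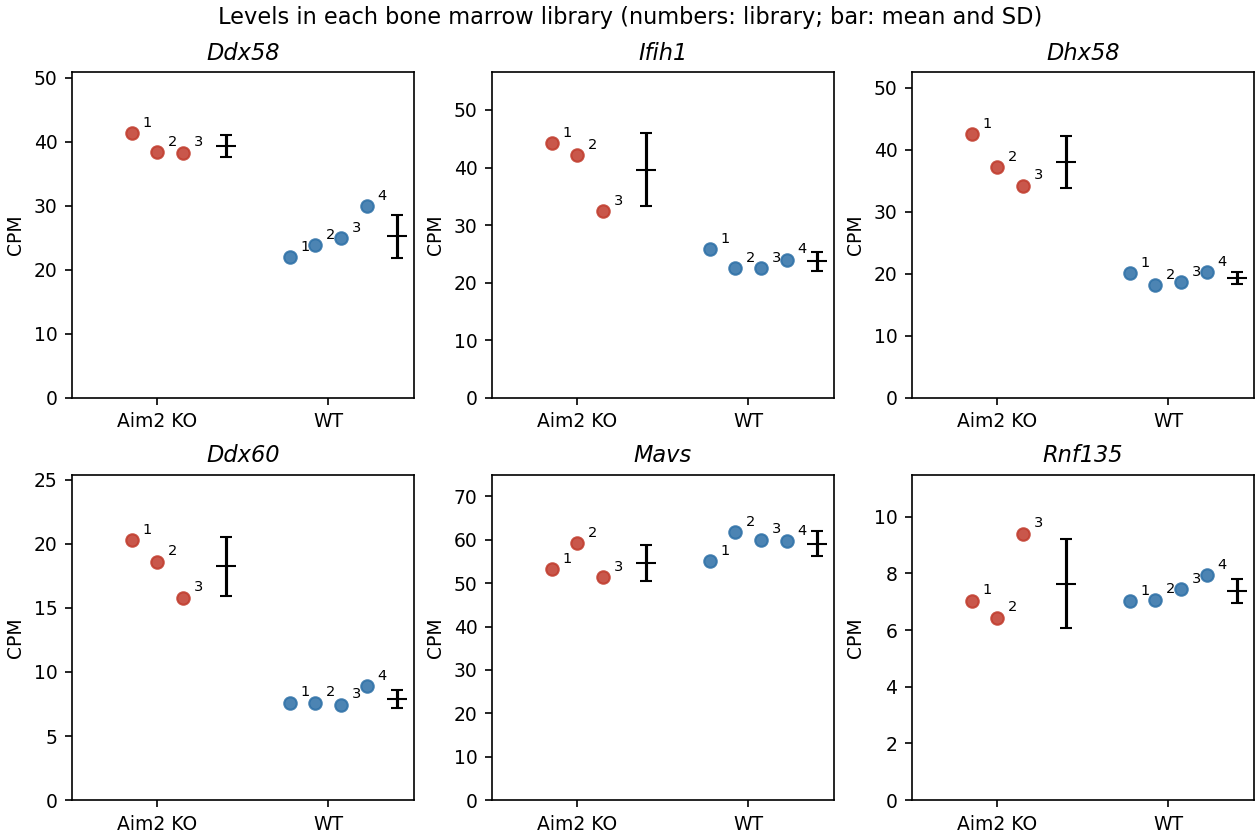
CPM of each member in each library, with Aim2 KO libraries on the left and WT libraries on the right of each panel; numbers are the libraries and the black bar is the mean with SD. In Ddx58, Ifih1, Dhx58 and Ddx60 every KO library lies above every WT library, for example at 15.8 to 20.3 CPM in KO and 7.46 to 8.9 CPM in WT for Ddx60, while the groups overlap for Mavs and Rnf135.

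The start regions of the helicase genes are shown because the interferon-stimulated response element, the DNA motif bound by ISGF3, can be read in them. RefSeq start windows on GRCm38.p6, from 250 bases before the transcription start to 50 after it, were matched for 5 of the 6 members, namely Ddx58, Ifih1, Ddx60, Mavs and Rnf135. Both strands of each window were searched for the core of the element, GAAA followed by any 2 bases and a second GAAA. Capitals mark its matches in the windows of Ddx58 (chr4:40239776-40240075, minus strand), Ifih1 (chr2:62646206-62646505, minus strand) and Ddx60 (chr8:61927837-61928136, plus strand), each printed 5′ to 3′ on the strand of its gene.
Ddx58: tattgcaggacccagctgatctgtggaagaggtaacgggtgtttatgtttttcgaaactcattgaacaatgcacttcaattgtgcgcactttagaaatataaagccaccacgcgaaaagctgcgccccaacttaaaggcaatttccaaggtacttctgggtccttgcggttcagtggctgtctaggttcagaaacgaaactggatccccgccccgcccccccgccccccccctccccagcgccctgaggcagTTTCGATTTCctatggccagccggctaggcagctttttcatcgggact
Ifih1: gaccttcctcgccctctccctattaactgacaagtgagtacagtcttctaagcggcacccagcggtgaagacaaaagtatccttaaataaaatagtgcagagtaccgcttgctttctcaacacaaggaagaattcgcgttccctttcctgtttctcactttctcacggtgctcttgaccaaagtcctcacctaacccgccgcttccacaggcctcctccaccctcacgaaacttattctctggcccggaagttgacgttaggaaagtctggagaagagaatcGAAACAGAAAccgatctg
Ddx60: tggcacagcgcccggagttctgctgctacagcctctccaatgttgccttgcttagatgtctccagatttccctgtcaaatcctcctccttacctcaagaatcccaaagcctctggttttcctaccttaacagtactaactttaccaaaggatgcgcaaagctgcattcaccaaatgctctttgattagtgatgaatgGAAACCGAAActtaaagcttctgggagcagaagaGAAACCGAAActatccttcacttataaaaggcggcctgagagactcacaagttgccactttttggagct

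The Ddx60 window held 2 matches, both with the letters GAAACCGAAA on the strand of the gene, whose first bases lie at positions -53 and -19 from the start. The Ifih1 window held 1 match, GAAACAGAAA, from position 33 after the start. The Ddx58 window held 1 match on the opposite strand, which reads TTTCGATTTC on the strand of the gene from position 3. The windows of Mavs and Rnf135 held none. Over all 32851 windows of the RefSeq table, 3.44% held at least 1 match and 0.225% held 2 or more. A match to the interferon gamma activated site, TTCNNNGAA, was in 8.30% of all windows and in no member's window. With 1 mismatch allowed, the response element core was in the same number of members, 3 of 5, and in 35.4% of all windows.

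**Figure D2:**
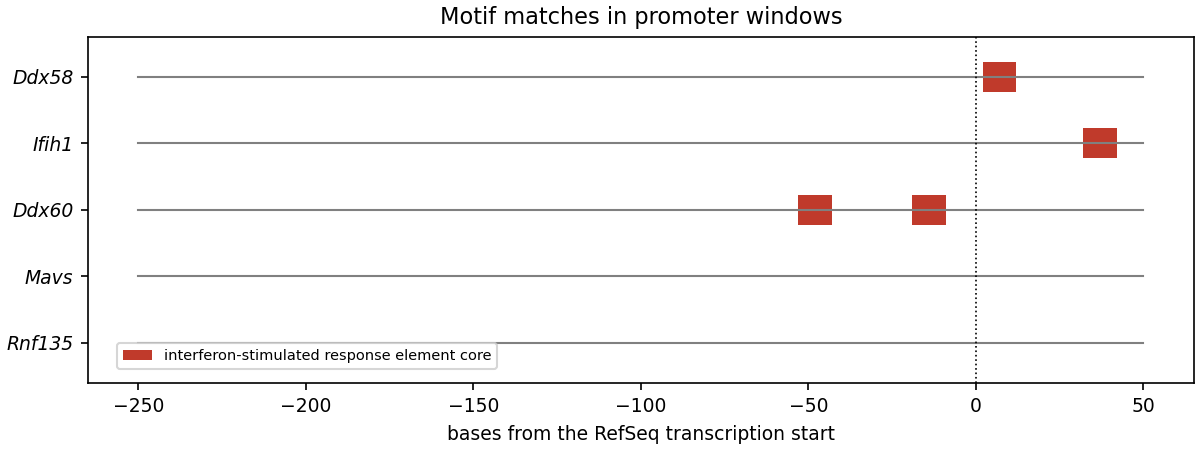
Positions of exact matches to the core of the interferon-stimulated response element, on either strand, in the RefSeq start windows of 5 members; the horizontal axis is the distance in bases from the transcription start, marked by the dotted line. Ddx60 has 2 matches before its start, Ddx58 and Ifih1 have 1 each after it, and Mavs and Rnf135 have none.

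Ddx60 (ENSMUSG00000037921.15, chr8:61928087-62038244, plus strand) encodes a large helicase of the Ski2-like family that interferon induces, and that has been proposed to assist RIG-I-like receptors and to act on viral RNA. It had 432, 387 and 349 reads in KO, against 142, 157, 154 and 186 reads in WT. These were 20.3, 18.6 and 15.8 CPM in KO, against 7.61, 7.61, 7.46 and 8.90 CPM in WT, so the lowest KO library stood well above the highest WT library. The level averaged 18.2 ± 2.27 CPM in KO and 7.90 ± 0.673 CPM in WT (SD, n = 3 and n = 4). The log2 fold change was 1.21 ± 0.11 (SE), with a 95% interval of 0.94 to 1.47 and an adjusted p of 0.00778 by edgeR. With single libraries left out the log2 fold change was 1.12 to 1.29, and the adjusted p was at most 0.0418. Limma on log2(TPM + 0.1) with no filter on low values gave 1.27 with an adjusted p of 0.0669.

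Dhx58 (ENSMUSG00000017830.15, chr11:100694884-100704271, minus strand) encodes LGP2, the receptor without signalling domains. It had 906, 775 and 755 reads in KO, against 374, 376, 385 and 424 reads in WT. On the CPM scale these were 42.5, 37.2 and 34.2 in KO, against 20.1, 18.2, 18.7 and 20.3 in WT. The WT libraries lay close together, and no KO library came near them. The mean level was 38.0 ± 4.23 CPM in KO and 19.3 ± 1.02 CPM in WT (SD, n = 3 and n = 4), which gave a log2 fold change of 0.98 ± 0.09 (SE; 95% interval 0.76 to 1.19; edgeR adjusted p = 0.00778). Leaving out single libraries gave log2 fold changes of 0.89 to 1.04 and adjusted p-values up to 0.0418.

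Ifih1 (ENSMUSG00000026896.14, chr2:62595798-62646255, minus strand) encodes MDA5, the receptor that coats long double-stranded RNA in filaments. Its reads were 944, 877 and 716 in KO, against 483, 464, 465 and 501 in WT. Its levels were 44.3, 42.1 and 32.4 CPM in KO, against 25.9, 22.5, 22.5 and 24.0 CPM in WT. KO library 3 was lower than the other KO libraries but still above all WT libraries. The mean was 39.6 ± 6.34 CPM in KO and 23.7 ± 1.60 CPM in WT (SD, n = 3 and n = 4). The log2 fold change was 0.74 ± 0.12 (SE), with a 95% interval of 0.47 to 1.00 and an edgeR adjusted p of 0.0392. The call depended on the libraries: only without KO library 3 was it kept (log2 fold change 0.86, edgeR adjusted p = 0.0124), and without any other single library the adjusted p was 0.0631 to 0.160 at log2 fold changes of 0.65 to 0.78. It was also lost on TPM values, with limma on log2(TPM + 0.1) giving a log2 fold change of 0.92 and an adjusted p of 0.0648.

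Ddx58 (ENSMUSG00000040296.15, chr4:40203773-40239828, minus strand) encodes RIG-I, the receptor for short double-stranded RNA with a triphosphate at its 5′ end. It had 882, 800 and 847 reads in KO, against 411, 494, 515 and 627 reads in WT. On the CPM scale it stood at 41.4, 38.4 and 38.3 in KO, against 22.0, 23.9, 25.0 and 30.0 in WT. Here the KO libraries were close together and the WT libraries spread more, with WT library 4 nearest to KO. The mean was 39.4 ± 1.74 CPM in KO and 25.2 ± 3.40 CPM in WT (SD, n = 3 and n = 4), and the log2 fold change was 0.64 ± 0.11 (SE; 95% interval 0.40 to 0.89). Its adjusted p of 0.0484 by edgeR lay just under the threshold. Without WT library 4 the adjusted p by edgeR was 0.0266, and without any other single library it was 0.0793 to 0.172, at log2 fold changes of 0.58 to 0.66. Its adjusted p was 0.0535 with RLE scaling, 0.0518 with scaling that omits haemoglobin, immunoglobulin and mitochondrial genes, 0.0592 with a filter of 1 CPM in 3 libraries, 0.0999 with an offset for effective transcript length and 0.229 by limma on log2(TPM + 0.1), at log2 fold changes of 0.61 to 0.76.

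Within the KO group KO library 1 was highest for all 4 helicases on both the CPM and the TPM scale. KO library 3 was lowest for all 4 on the CPM scale, by 38.3 against 38.4 CPM for Ddx58, but on the TPM scale KO library 2 was lowest for Ddx58 and Dhx58. Relative to the WT mean on the log2(CPM + 0.5) scale, Ddx60 stood 1.31, 1.19 and 0.96 higher in KO libraries 1, 2 and 3, and Dhx58 stood 1.12, 0.93 and 0.81 higher. Ifih1 differed by 0.89, 0.82 and 0.44 and Ddx58 by 0.71, 0.61 and 0.60. KO library 1 was also the KO library with the most Aim2 reads, 157 against 47 and 59. Without it the log2 fold changes were 1.12 for Ddx60, 0.89 for Dhx58, 0.65 for Ifih1 and 0.60 for Ddx58, with edgeR adjusted p-values of 0.0189, 0.0146, 0.104 and 0.128. KO library 3 held the most reads of skeletal muscle genes, with a sum over 10 markers of 6087 CPM, against 60.8 and 769 CPM in KO libraries 1 and 2 and 1063 to 2159 CPM in WT. Without KO library 3 the log2 fold change was 1.29 for Ddx60, 1.04 for Dhx58, 0.86 for Ifih1 and 0.66 for Ddx58.

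Mavs (ENSMUSG00000037523.13, chr2:131234063-131248025, plus strand) is the adaptor through which RIG-I and MDA5 signal. It had 1133, 1232 and 1137 reads in KO, against 1025, 1274, 1239 and 1246 reads in WT. Its levels were 53.2, 59.2 and 51.4 CPM in KO, against 55.0, 61.7, 60.0 and 59.6 CPM in WT, and the groups overlapped. The log2 fold change was -0.11 ± 0.07 (SE), with a 95% interval of -0.28 to 0.06 and an adjusted p of 0.623 by edgeR. On TPM values limma on log2(TPM + 0.1) gave a log2 fold change of 0.03, but that scaling moved the median of all genes to 0.129, and relative to the median Mavs stood at -0.10 in both fits. The upper bound of the interval by counts lay below the lower bounds of all 4 helicases, the lowest of which was 0.40 for Ddx58.

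Rnf135 (ENSMUSG00000020707.6, chr11:80183851-80199757, plus strand), the ligase that modifies RIG-I, had 150, 134 and 208 reads in KO, against 131, 146, 154 and 166 reads in WT. These were 7.04, 6.44 and 9.41 CPM in KO, against 7.02, 7.08, 7.46 and 7.94 CPM in WT. KO library 3 was the highest of all and KO library 2 the lowest of all, so the KO values spanned those of WT. The log2 fold change was 0.05 ± 0.15 (SE), with a 95% interval of -0.29 to 0.39 and an edgeR adjusted p of 0.941. Without KO library 3 it was -0.14, with an adjusted p of 0.671, so the data give it no direction.

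Levels can be ordered between genes on the TPM scale, which is corrected for transcript length. In KO marrow Dhx58 averaged 20.2 TPM (range 18.4 to 23.0) and Mavs 18.9 TPM (18.4 to 19.3), with overlapping ranges. Below them in KO came Ddx58 at 11.9 TPM and Ifih1 at 9.22 TPM, which also overlapped, and then Rnf135 at 4.20 TPM and Ddx60 at 3.40 TPM, overlapping as well. In WT marrow Mavs led alone at 18.7 TPM (15.0 to 20.5), and Dhx58 followed at 9.60 TPM (8.81 to 10.1). Next in WT stood Ddx58 at 7.06 TPM and Ifih1 at 4.80 TPM, whose ranges just overlapped, then Rnf135 at 3.79 TPM and Ddx60 at 1.34 TPM, which did not overlap. These sums include non-coding transcripts. Counting protein-coding transcripts alone, Dhx58 stood at 13.8 to 17.5 TPM in KO, below Mavs at 17.7 to 18.1 TPM, and the ranges did not overlap. On the same coding scale Ddx58 averaged 6.01 TPM in KO and 3.05 TPM in WT, and Ifih1 8.89 TPM in KO and 4.58 TPM in WT. Their order thus turned in both genotypes, with no overlap between the pair in either. This coding order depends on how reads were split between the coding transcript Ddx58-201 and Ddx58-205, annotated as non-coding. Ddx58-205 shares 66.9% of its bases with Ddx58-201, so the split is uncertain. By all transcripts Ddx60 was the lowest member in both genotypes, with 29.7% of tested genes below it in KO and 18.4% in WT.

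Whether the helicases differed by the same factor was read from their ratios. These ratios were added after gene results were seen, and they restate the fold changes above within each library. Pairs that share a gene depend on each other, and how often the ratios of other gene pairs overlap was not examined. For each of the 6 pairs the log2 ratio of their CPM was taken within a library and compared between genotypes by an exact permutation test over the 7 libraries, two-sided. The two-sided p counts the smaller one-sided p for both directions. The smallest value this test can give is therefore 0.0571, and no pair can pass 0.05 by it. The ratio of Ddx58 to Ddx60 was 1.01, 1.03 and 1.25 in KO, against 1.47, 1.59, 1.68 and 1.7 in WT on the log2 scale, a difference of -0.51. KO and WT ratios did not overlap in this pair, nor for Ifih1 to Ddx60 (difference -0.44), Ifih1 to Dhx58 (-0.24) or Dhx58 to Ddx60 (-0.20), each with the exact permutation p of 0.0571, or 0.0857 when adjusted over the 6 pairs. For Ddx58 to Dhx58 the difference was -0.31 with 1 pair of libraries crossing (exact permutation p = 0.114, adjusted 0.137). For Ddx58 to Ifih1 it was -0.08 (exact permutation p = 0.743), and the KO ratios lay within the range of WT.

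The files list 33 transcripts for the 6 genes, of which 14 had enough reads to test. One of them, Dhx58-201, passed the threshold in edgeR's test over 34507 transcripts, in which 0.0174% were higher. This transcript codes for 678 amino acids and held most of the gene's reads. It had 845, 722 and 696 reads in KO, against 336, 341, 353 and 392 reads in WT, with no overlap. Its log2 fold change was 1.01 ± 0.10 (SE; edgeR adjusted p = 0.0445), and the call was lost when any 1 library was left out, with adjusted p up to 0.178. A short non-coding transcript of the gene, Dhx58-204, took 19.9 ± 1.10% of the gene's TPM in KO and 26.6 ± 3.44% in WT (SD, n = 3 and n = 4). Its shares did not overlap, at 18.8 to 21% in KO and 23.0 to 31.2% in WT (exact permutation p = 0.0571, adjusted over 12 shares 0.457).

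Salmon divides reads that fit several transcripts by its model, so transcript values within a gene are less certain than their sum, and Ddx60 shows it most. Ddx60-202 shares 99.7% of its bases with Ddx60-201 and has 16 of its own. It was given 107.7, 0 and 0 reads in KO, against 96.3, 104.6, 0 and 0 reads in WT. Ddx60-201 was given 311.7, 376.7 and 325.7 reads in KO, against 35.6, 38.7, 143.5 and 182.3 reads in WT. The pair traded reads within each genotype, while their gene total varied little. The annotated reading frames of Ddx60-202 and Ddx60-201 have 1711 and 1710 codons.

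The other helicases were each carried by a pair of transcripts. Ifih1-201, the full form of 1025 codons, took 58.3 ± 0.552% of the gene's TPM in KO and 65.1 ± 6.07% in WT. Ifih1-202, which lies wholly within it and lacks 147 coding bases, took 38.2 ± 1.47% in KO and 30.2 ± 7.76% in WT (exact permutation p = 0.229 for both shares, SD over n = 3 and n = 4). Ddx58-201, the coding form of 926 codons, took 50.6 ± 4.81% in KO and 42.6 ± 7.55% in WT. Ddx58-205, annotated as non-coding, took 42.5 ± 4.92% in KO and 49.1 ± 6.25% in WT, and it extends 1072 bases past the annotated end of Ddx58-201. The KO and WT shares overlapped for all 4 transcripts, and their adjusted permutation p was 0.457. The 2 main Mavs transcripts have the same reading frame of 503 codons and took shares of 68.6% in KO and 69.0% in WT for Mavs-201 and 26.0% in KO and 26.6% in WT for Mavs-202.

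**Figure D3:**
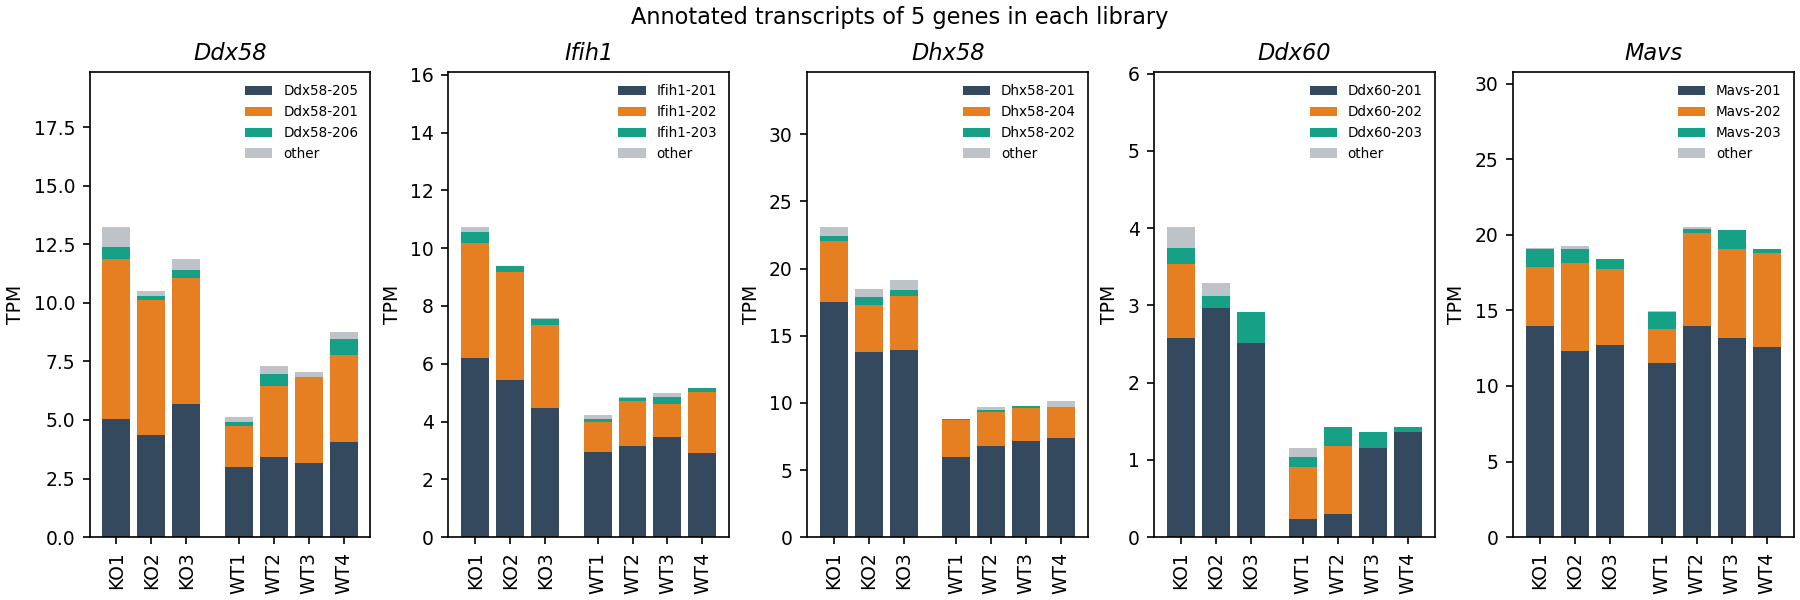
TPM of the annotated transcripts of 5 members, stacked for each library, with KO1 to KO3 left of WT1 to WT4 and the transcripts beyond the main 3 of each gene in grey. The stacks of the 4 helicases are taller in KO, those of Mavs are alike, and the split between Ddx60-201 and Ddx60-202 jumps between libraries of the same genotype.

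Few genes for proteins that act on the receptors passed edgeR's threshold, though a larger share than over all tested genes. Over all tested genes 0.478% were higher and 0.169% lower. Of 35 tested regulators of RIG-I and MDA5, among them ubiquitin ligases, deubiquitinases and phosphatases, 1 was higher and 1 lower. Their median log2 fold change was 0.02, against -0.01 over all tested genes. The one that rose was Oasl1, an interferon-induced protein whose human relative OASL enhances RIG-I signalling and which in mice restrains translation of Irf7. It averaged 27.4 ± 2.50 CPM in KO and 9.91 ± 2.68 CPM in WT (SD, n = 3 and n = 4), a log2 fold change of 1.47 ± 0.20 (edgeR adjusted p = 0.0269). The one that fell was Siglecg, a lectin of B cells and macrophages reported in mice to promote degradation of RIG-I. It averaged 31.6 ± 2.12 CPM in KO and 51.1 ± 6.44 CPM in WT, a log2 fold change of -0.70 ± 0.11 (edgeR adjusted p = 0.0382). When each library was omitted in turn, Oasl1 passed in 4 of 7 fits and Siglecg in none. The sum over 12 markers of the B lineage was also lower in each KO library, at 192 to 303 CPM in KO and 382 to 629 CPM in WT. None of these 12 markers passed edgeR's threshold and none was at 0. Of the 12, 9 had an unadjusted p under 0.05, all of them lower in KO, and DESeq2 called 7 and voom 5. Their part in the value of Siglecg was not tested.

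At the level of Mavs and below it, few genes passed edgeR's threshold, though a larger share than over all tested genes. Those that passed are also among the interferon-stimulated genes described below. Over all tested genes 0.478% were higher and 0.169% lower, and 11.5% had an unadjusted p under 0.05. Of 35 tested regulators of Mavs 2 were higher and none lower, with a median log2 fold change near 0. At an unadjusted p under 0.05 there were 5 (14.3%), of which 3 were higher. The 2 that passed were Usp18, a protease that removes ISG15 and curbs interferon signalling, and Ifit3, an interferon-induced protein that bridges Mavs to the kinase Tbk1. Usp18 stood at 27.6, 27.3 and 29.1 CPM in KO, against 11.5, 10.5, 10.1 and 13.4 CPM in WT, a log2 fold change of 1.30 ± 0.11 (edgeR adjusted p = 0.00561). It passed whichever library was omitted, and Ifit3 (log2 fold change 1.49 ± 0.19, edgeR adjusted p = 0.0243) in 4 of 7. Of 30 tested genes that relay the signal below Mavs, such as the Traf adaptors and the kinases Tbk1 and Ikbke, 1 was higher and none lower, with a median log2 fold change of 0.01 and 4 at an unadjusted p under 0.05. The one that rose was Irf7, the factor that amplifies interferon production. It averaged 147 ± 13.1 CPM in KO and 63.6 ± 15.5 CPM in WT, a log2 fold change of 1.21 ± 0.18 (edgeR adjusted p = 0.0327), and it passed in 2 of 7 fits that omit a library.

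Transcripts of the interferons that this pathway makes were hardly detected. Over the 14 listed genes of the alpha and beta families of type I interferons the summed reads were 0, 2 and 1 in KO, against 0 in each WT library, and 12 of the 14 genes had no read in any library. With Ifnz, Ifnk and Ifne, type I interferon genes outside these families, the sums over 17 genes were 1.7, 3.0 and 1.0 in KO, against 1.5, 3.6, 1.8 and 0 in WT. A count of 0 allows up to 3 reads in a library, so no difference was detectable at this depth. Of 26 interferon and cytokine genes listed, 5 had enough reads to test and none passed edgeR's threshold, nor that of DESeq2 or voom, and 1 had an unadjusted p under 0.05. This was Cxcl10, a chemokine that interferons induce, at 5.59, 4.47 and 7.33 CPM in KO, against 3.32, 3.05, 3.25 and 4.35 CPM in WT, a log2 fold change of 0.73 ± 0.21 (edgeR adjusted p = 0.218). Tnf had a log2 fold change of 0.34 ± 0.19, with an edgeR adjusted p of 0.541. Of 9 tested genes of the type I, gamma and lambda interferon receptors and their kinases none passed edgeR, DESeq2 or voom. None had an unadjusted p under 0.05. All 9 had a log2 fold change above 0, as had 6735 of all 14238 tested genes. The median was 0.08, against -0.01 over all tested genes. Ifnar2, a receptor subunit, had a log2 fold change of 0.16 (edgeR adjusted p = 0.460), and the kinase Tyk2 had 0.21 (0.499).

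Several other sensors of double-stranded RNA rose. Of 24 tested, 9 were higher and none lower, against 0.478% and 0.169% of all tested genes, and the median log2 fold change was 0.30. Those with the smallest p were oligoadenylate synthetases, which make the messenger that activates RNase L, their relatives Oasl1 and Oasl2, and Zbp1, a sensor of left-handed nucleic acid that can start cell death. Oas1g had 317, 301 and 520 reads in KO, against 45, 46, 37 and 61 reads in WT, a log2 fold change of 2.91 ± 0.22 (edgeR adjusted p = 0.00422). Oas2 (2.09 ± 0.21), Oas1a (1.80 ± 0.16), Oasl2 (1.74 ± 0.19) and Zbp1 (1.59 ± 0.17) had edgeR adjusted p-values from 0.00665 to 0.0111, and Oasl1 was described above. The Oas1 genes are close copies, and the split of reads between Oas1a and Oas1g is therefore uncertain. With a library left out 4 to 8 of the sensors passed, with 5 without KO library 1, 4 without KO library 2 and 5 without WT library 2.

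Many other interferon-stimulated genes rose as well. Of 42 tested, 23 were higher and none lower, 41 had a log2 fold change above 0, and the median was 0.77, beside 0.69 over the 6 members. Over all 14238 tested genes 68 (0.478%) were higher, 6735 had a log2 fold change above 0, and the median was -0.01. Of the 23, 8 are also among the sensors above, and of 30 genes that no other list here holds 12 were higher. Besides genes already named, Xaf1, an antagonist of an apoptosis inhibitor, had 21.1, 19.8 and 21.7 CPM in KO, against 11.5, 8.82, 8.72 and 9.76 CPM in WT, a log2 fold change of 1.11 ± 0.11 (edgeR adjusted p = 0.00877). The number that passed was sensitive to single libraries, at 11 without KO library 1, 8 without KO library 2, 8 without WT library 2 and 11 without WT library 3. DESeq2 called 35 and voom 33.

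**Figure D4:**
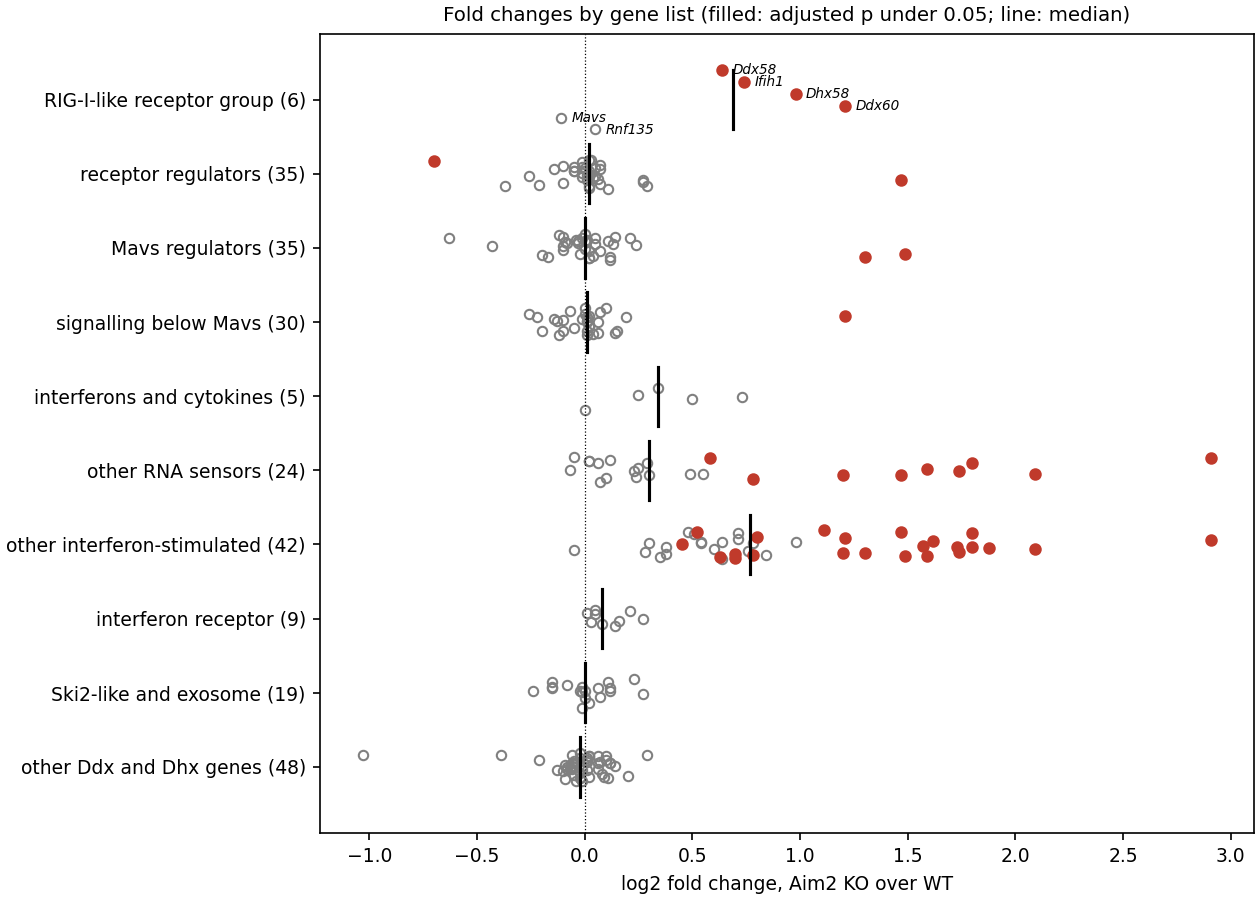
Log2 fold change, Aim2 KO over WT, of each tested gene in the member group and in 9 gene lists, with the number tested in brackets; filled points passed an edgeR adjusted p of 0.05 and the black line is the median. The 4 helicase members, the other RNA sensors and the interferon-stimulated genes hold most of the filled points, and the lists of regulators, signalling genes and other helicases lie around 0.

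No other Ddx or Dhx helicase passed the test. Of 48 other tested genes named Ddx or Dhx, none passed edgeR's threshold, and the median log2 fold change was -0.02. Of these 2 had an unadjusted p under 0.05 (4.17%, against 11.5% of all tested genes), and DESeq2 and voom called 1 each. Ddx24, a helicase of the nucleolus, had a log2 fold change of 0.29 ± 0.08 (edgeR adjusted p = 0.185), and Ddx25, a helicase of the testis with 5 to 15 reads per library, had -1.03 ± 0.36 (0.330). Ddx60 belongs to the Ski2-like helicases, some of which feed RNA to the exosome. Of 19 tested genes of that family and its partners none passed edgeR, DESeq2 or voom, and 2 had an unadjusted p under 0.05. These were Ascc3 (log2 fold change 0.27 ± 0.09, edgeR adjusted p = 0.304) and Ttc37 (0.23 ± 0.09, 0.380). Dicer1 and Fancm, whose helicase domains resemble those of the receptors, had log2 fold changes of -0.01 ± 0.06 and 0.01 ± 0.13 with no fixed sign under other settings, and neither passed edgeR, DESeq2 or voom or had an unadjusted p under 0.05.

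Genes whose pattern over the 7 libraries was most like that of each member were found by the root mean square difference in log2(CPM + 0.5), each gene centred on its own mean, over the 13210 tested genes that averaged 1 CPM or more. Among the nearest to Ddx58 were Slfn1 (0.053), Parp12 (0.0657), Fpr1 (0.0752) and Gm4070 (0.0776). For Ifih1 they were Parp9 (0.0861), Eif2ak2 (0.091), AI661453 (0.0934), Phf11a (0.111) and Irf9 (0.115). Dhx58 and Ddx60 were near each other at 0.116, each within the other's first 2 neighbours. The remaining neighbours of Dhx58 were Rnf213 (0.108), Irgm1 (0.123), Ace (0.129) and Ifih1 (0.139), and those of Ddx60 were Usp18 (0.141), Xaf1 (0.178), Rhov (0.191) and Cfap126 (0.194). Mavs lay nearest to Kif1bp (0.0224), Gba2 (0.0331), Alkbh7 (0.0349), Tmem206 (0.0352) and Lrrc8a (0.0363), and among the nearest to Rnf135 were Tmem109 (0.0475), Znrd1as (0.0477), Ccser2 (0.0509) and Ctnnbip1 (0.0519). All libraries share 1 contrast, so genes with a like fold change are near by construction, and a flat gene has small differences from any other flat gene.

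No marker of marrow cells was at 0 in all libraries, but some had few reads. Of 8 adipocyte markers 5 had enough reads to test, and Plin1, Lep and Plin4 did not. None of the 5 had an unadjusted p under 0.05. The 8 summed to 263 to 403 CPM in KO and 337 to 428 CPM in WT, with overlap. Monocyte and macrophage markers, of cells that express the RIG-I-like receptors, summed to 1643 to 1857 CPM in KO and 1056 to 1674 CPM in WT, and plasmacytoid dendritic cell markers to 212 to 321 CPM in KO and 257 to 321 CPM in WT, with overlap in both. Neutrophil markers summed to 23503 to 25606 CPM in KO and 18071 to 23516 CPM in WT, and erythroid markers to 112556 to 146571 CPM in KO and 143133 to 226909 CPM in WT, again with overlap. The share of reads from haemoglobin genes, however, just did not overlap, at 11.3 to 13.7% in KO and 13.8 to 19.9% in WT. Plasma cell markers summed to 710 to 883 CPM in KO and 445 to 679 CPM in WT, and they and the B lineage did not overlap between genotypes. T and NK cell markers summed to 140 to 148 CPM in KO and 123 to 165 CPM in WT. No marker in these lists passed edgeR's threshold. At an unadjusted p under 0.05 there were 4 of 12 monocyte, 3 of 12 neutrophil, 1 of 12 erythroid, 6 of 8 plasma cell, 2 of 10 plasmacytoid dendritic and 5 of 12 T and NK cell markers. In the same order, DESeq2 called 1, 0, 1, 2, 1 and 2 of them, and voom called 1 in each of the last 2 lists and none in the others. Of those with an unadjusted p under 0.05, 4, 3, 0, 6, 1 and 1 were higher in KO, in this order, and the rest lower. A log2 fold change above 0 was found for 10 of 12 monocyte, 11 of 12 neutrophil and 0 of 12 erythroid markers. It was found for 7 of 8 plasma cell, 7 of 10 plasmacytoid dendritic and 5 of 12 T and NK cell markers. Osteoblast markers summed to 1690 to 1853 CPM in KO and 1722 to 3093 CPM in WT, with overlap. Of these 8 markers 3 had an unadjusted p under 0.05, of which 1 was higher in KO and the others lower. DESeq2 called 2 of the 8 and voom none, and edgeR called 1 without WT library 1 and 1 without WT library 4. Without WT library 1 edgeR also called 1 of the 12 T and NK cell markers. Over all tested genes the share with an unadjusted p under 0.05 was 11.5%. The part of these cell types in the rise of the helicases was not tested.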

How the data were processed

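RNA was prepared with a column kit and made into strand-specific mRNA libraries for the DNBSEQ platform, per the labels' protocols. FastQC 0.11.9, Salmon 1.7.0, DESeq2 and the build GRCm38.p6 are named in the submitters' processing notes. Salmon's options and the annotation release are not given in the sources used here. For each of 116546 transcripts the authors deposited an estimated count from Salmon, which can be fractional. Beside it they deposited a TPM, which relates a transcript's reads to its effective length and to the whole library.

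Transcripts were joined to GENCODE M21 genes by identifier, and 569 without a gene, with at most 0.0662% of reads, were left out. No other gene with a listed transcript overlaps a member. The counts of a gene's transcripts were added up and rounded, and genes were filtered with filterByExpr, scaled with TMM (factors 0.918 to 1.06) and tested with edgeR 4.0.16 (R 4.3.3; quasi-likelihood, no covariates, two-sided, Benjamini-Hochberg over 14238 genes or 34507 transcripts, threshold 0.05). SE is the absolute log2 fold change over the square root of F. The steps were tested on simulated counts. CPM use TMM-adjusted totals. No set test was run.

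The members and lists were chosen with earlier results of these data known. Of each list, genes past the threshold were named, at most the 6 with the smallest p, or the 2 with the smallest p where none passed. The 5 genes nearest to each member by pattern were chosen as well, and some of these are not reported here. The ratios of helicase pairs and the sums over coding transcripts were added after gene results were seen. Sample numbers come from the titles; the WT files carry other numbers. Alternatives were scaling by RLE or without the haemoglobin, immunoglobulin and mitochondrial genes, DESeq2 1.42.0, voom with sample weights (limma 3.58.1), other filters, an effective length offset, limma on log2(TPM + 0.1) and log2(TPM + 1), a threshold of 0.10, the replicate block, and each library left out.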

Additional observations from a re-analysis of the deposited data

Results flagged for a closer look

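Of 50 groups of 4 WT values examined for a single library far from the rest, 4 were picked out, where chance picks out about 1 in 20. The CPM of Ddx60 was 8.90 in WT library 4, against 7.46 to 7.61 in the other WT libraries, so the library that stood apart lay towards the KO values of 15.8 to 20.3 CPM. The share of Ddx58-205 in the TPM of Ddx58 was 58.4% in WT library 1, against 44.9 to 46.7% in the others. The share of Rnf135-201 in the TPM of Rnf135 was 87.4% in WT library 1, against 100% in the others, and the difference rests on 1 read given to the short transcript Rnf135-202. The sum of 12 T and NK cell markers was 123 CPM in WT library 1, against 162 to 165 CPM in the others. WT library 1 is also the library with the highest haemoglobin share, 19.9%. Without it the log2 fold changes were 1.19 for Ddx60, 1.00 for Dhx58, 0.78 for Ifih1 and 0.58 for Ddx58.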

How the results depend on the processing

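Ddx58, Ifih1, Dhx58 and Ddx60 kept a log2 fold change above 0 under every alternative run. The number of members called, 4, was 2 with limma on log2(TPM + 0.1), 2 with log2(TPM + 1), 1 with log2(TPM + 0.1) and no filter, and 2 to 3 with a library left out. Of 108 values of members under alternatives, 76 kept their call and sign, 26 lost the call and 6 changed sign. Mavs was 0.03 in all 3 TPM fits, and -0.10 to -0.07 relative to their medians of all genes. Rnf135 was -0.11 with voom, -0.01 with the length offset and -0.14 to 0.16 with a library left out. Fancm was -0.41 with the offset, -0.24, -0.19 and -0.24 in the TPM fits, and -0.10 to 0.13 with a library left out. Dicer1 was 0.15, 0.13 and 0.15 in the TPM fits and -0.03 to 0.02 with a library left out. The member transcript call became 0 with any library left out. The cause of these moves was not tested. The TPM fits shift the median of all genes from -0.011 to 0.129, 0.103 and 0.106.

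The 92 genes called became 405 with DESeq2, 305 with voom, 55 with the offset, 49, 50 and 28 in the TPM fits, 198 at an adjusted p of 0.10 and 17 to 65 with a library left out. Their share higher, 73.9%, was 87.8 and 90.0% in the filtered TPM fits, 71.4% in the unfiltered one, 60.0% with voom, 64.0% with DESeq2, 95.2% with the block and 69.2 to 95.5% with a library left out. The 23 interferon-stimulated genes became 35 with DESeq2, 13 with the offset, 12 with TPM and no filter, and 8 to 20 with a library left out.

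With the replicate number as a block 1 member was called, 21 genes and 10 interferon-stimulated genes, and Fancm was -0.04. Deviations of same-numbered libraries, by the numbers of the titles, correlated at 0.12, -0.04 and -0.27. The deviations are taken from the mean of each genotype, so these correlations depend on each other. They cannot decide whether libraries of the same number are related. The WT files carry the numbers 1, 3, 4 and 5. By these, 2 pairs share a number, KO library 1 with WT library 1 (0.12) and KO library 3 with WT library 2 (0.23), and this numbering was not fitted as a block. Genes with few reads, such as the interferons, were limited by depth.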
